A study of Mus musculus with 24 samples.

Results

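N6-methyladenosine (m6A) loci that carried a peak in every kidney of the study were examined. Peaks of all 12 kidneys that shared at least 1 bp were joined into 16801 loci, and 2420 of them were chosen by their presence in all 12 peak lists. Of these, 2391 were assigned to a protein-coding gene, in 1639 genes. The male C57 mice, C57BL/6 in the methods of the study, were 8 weeks old when they were placed in 3 groups of 4. Control mice received saline throughout. Mice of the injury group (IG) received saline for 14 days and then 1 injection of cisplatin, a platinum chemotherapy drug that damages renal tubules, at 20 mg/kg. Mice of the treatment group (TG) received berberine, a plant alkaloid, at 20 mg/kg daily over the same 14 days and then the same dose of cisplatin. Kidneys were taken 72 h after cisplatin and RNA was extracted from kidney tissue, so each sample mixes renal cell types. IG was compared with control (IvC), TG with IG (TvI) and TG with control (TvC).

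m6A is a reversible mark on adenosines within RNA. It is placed by a complex built on METTL3 and METTL14, removed by FTO and ALKBH5 and bound by YTH domain proteins, and it influences splicing, export, translation and decay. It is known to favour long internal exons and the region around the stop codon, within a short consensus called RRACH (a purine, a purine, A, C and then any base but G). In MeRIP-seq, fragments carrying m6A are pulled down with an antibody and stand out as peaks over input RNA. The score of a peak is −10 times log10 of its p-value from the peak caller MACS, so it depends on the amount of the RNA as well as on its methylation. Fewer methylated copies and less RNA of a gene therefore cannot be told apart here. Input reads and RNA-seq were not used here.

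Sequences are shown for loci on which the comparisons turn, because a peak spans an exon or more and the consensus inside it is the part that can be read. Of 36 such loci, 27 held GGACN, with any base but G at N, on the strand of the gene within the stretch shared by the 12 peaks. The sequences are of the GRCm38 build, 5′ to 3′ along the mRNA, and capitals mark the site nearest the middle of the shared stretch. No site was measured at base resolution. Loci that rose in IG:
Rrbp1 (chr2:143988974-143989034, minus strand, CDS): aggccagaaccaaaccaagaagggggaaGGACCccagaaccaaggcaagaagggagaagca
Bmp3 (chr5:98872715-98872775, plus strand, CDS): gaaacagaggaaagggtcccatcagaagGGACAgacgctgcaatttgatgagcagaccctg
Pik3c2a (chr7:116417918-116417978, minus strand, CDS): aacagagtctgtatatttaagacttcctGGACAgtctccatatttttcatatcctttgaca
Loci that fell in IG:
Igfbp5 (chr1:72860177-72860201, minus strand, last exon): tcgactcataGGACAtgggtggctg
Elfn1 (chr5:139972897-139972957, plus strand, CDS): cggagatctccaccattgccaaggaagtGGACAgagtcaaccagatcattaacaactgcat
Pclo (chr5:14669456-14669516, plus strand, CDS): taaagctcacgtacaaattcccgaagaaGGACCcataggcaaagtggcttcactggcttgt
The only members called in TvI:
Arhgap24 (chr5:102892270-102892330, plus strand, CDS): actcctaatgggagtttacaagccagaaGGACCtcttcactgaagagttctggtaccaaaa
Erp29 (chr5:121445182-121445242, minus strand, CDS): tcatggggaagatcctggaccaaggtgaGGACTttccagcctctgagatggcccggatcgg
A locus at the top of all 12 lists and a locus with a steady rank lower in the lists:
Eif5b (chr1:38019188-38019248, plus strand, CDS): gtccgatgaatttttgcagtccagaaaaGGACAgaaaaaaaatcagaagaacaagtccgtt
Nbn (chr4:15981456-15981516, plus strand, CDS): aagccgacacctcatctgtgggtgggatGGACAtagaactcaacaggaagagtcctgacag
Predicted genes with near-identical windows, shown because reads may be shared between them:
Gm10722 (chr9:3001388-3001444, plus strand, CDS): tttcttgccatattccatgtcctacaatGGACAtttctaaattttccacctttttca
Gm21738 (chr14:19417208-19417268, minus strand, CDS): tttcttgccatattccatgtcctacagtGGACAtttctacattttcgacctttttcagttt

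The lists held 5901 to 9579 peaks, with 8952 ± 458 in control, 7422 ± 687 in IG and 6380 ± 375 in TG (mean ± SD, n = 4 each). Without read counts in the lists, sequencing depth could not be assessed. The median score of the 2420 loci was 281 ± 35.5 in control, 252 ± 15.2 in IG and 212 ± 19.0 in TG, and control 4 stood apart with a median of 334 against 259.5 to 269 in the other control kidneys. Because list length and score level differed between groups, loci were compared only by their rank within a kidney among the 2420, where rank 1 is the highest score. Of 28 marker genes of renal cell types, 16 had a locus in any kidney and 1, Pecam1, had a locus in all 12. Lrp2, Slc34a1 and Umod, markers of the proximal tubule and the thick ascending limb, had none. A missing peak does not show that the RNA was missing, and the tissue label could not be checked further on these loci.

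The number of loci did not fall steadily with the number of kidneys that had a peak. There were 3878 loci with a peak in 1 kidney, 640 in 9 kidneys, 868 in 11 and 2420 in all 12. Median scores were higher the more kidneys had the peak. No list held a score under 13.02, so presence in many lists by itself favours high scores. The median score was 20.5 for loci in 1 kidney, 94.5 for loci in 11 and 247 for loci in all 12. Just inside the rule, the lowest of the 12 scores of a locus had a median of 67.0, and among the loci missing from 1 kidney the lowest of the 11 scores had a median of 22.7. The missing kidney was a TG kidney more often than a control kidney: TG 3 alone lacked 132 of these loci and control 4 alone 29.

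**Figure D1:**
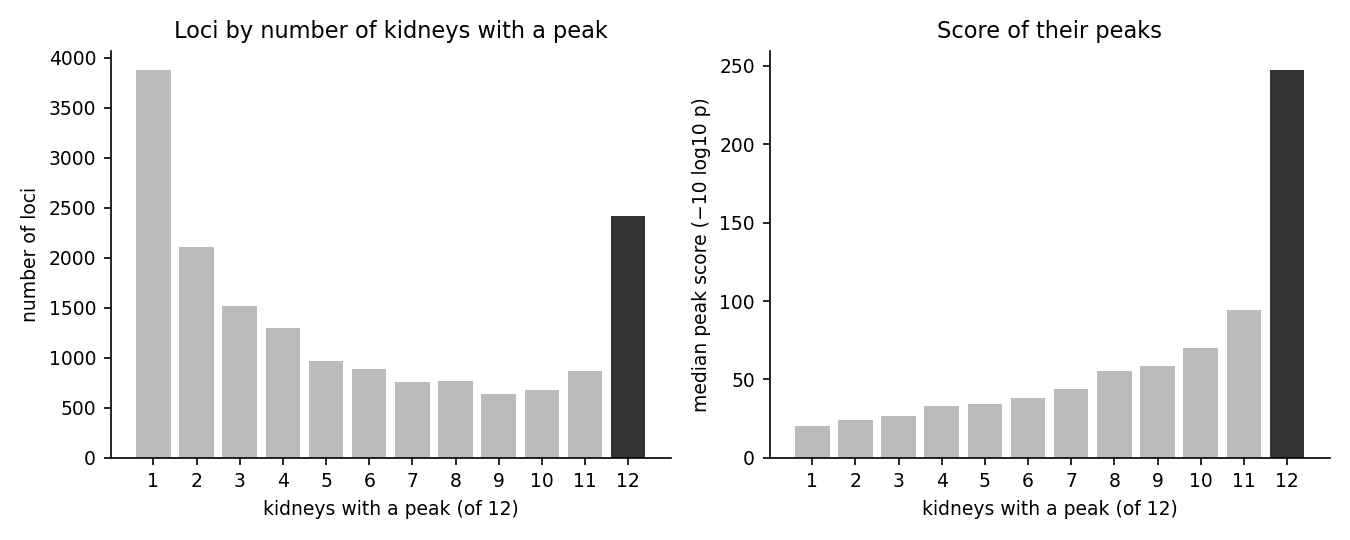
Left, the number of loci (vertical axis) by the number of kidneys with a peak (horizontal axis). Right, the median score of their peaks in −10 log10 p. The dark bar marks the 2420 loci found in all 12 kidneys, whose median score was 247.

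Loci present in all kidneys made up 25.4% to 41.2% of the peaks of a list but 74.4% to 83.0% of its 1000 highest peaks. The choice by presence in all lists itself favours high peaks. The same start and end in every kidney were found for 1688 of them (69.8%), against 59.9% of the 868 loci present in 11 kidneys, counted over those with a peak. In 69.5% of those assigned to a gene the highest peak spanned exactly 1 annotated exon, against 62.5% of the other loci. Most lay in coding exons. Of the 2391 loci assigned to a protein-coding gene, 64.7% lay within the CDS, 23.3% reached over the stop codon, 8.82% reached over the start codon, 1.25% lay in the 3′ UTR and 0.795% in the 5′ UTR. Among the other loci the CDS share was 56.1%, the stop codon share 24.3% and the 3′ UTR share 2.86%. Internal exons of at least 400 nt hosted 20.5% of the loci present in all kidneys and 11.1% of the other loci. Among the loci present in 11 kidneys the share was 19.2%, close to that of the loci in all kidneys.

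In the 101 bp around the middle of the shared stretch, RRACH occurred on the strand of the gene in 84.3% of the loci and on the opposite strand in 54.5%. Among the other loci the shares were 80.3% and 63.1%. GGACT, the form best known for methylation, was no more frequent in the loci present in all kidneys (9.42%, against 8.76% on the opposite strand) than in the rest (11.1%, against 8.82%). AAACA, another form of the consensus, was found in 18.6% on the strand of the gene and in 6.98% on the opposite strand, and among the other loci in 15.1% and 10.03%. GC content was also a little lower, with a median of 48.5% against 50.5% in the other loci. These are descriptions of windows and do not place a methylated base.

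Some genes carried many of these loci. A single locus was found in 1205 of the 1639 genes, and 434 genes held 1186 loci between them. Rock1, which encodes a kinase of the actin cytoskeleton, held 10. Akap9, a centrosomal scaffold, Baz2b, a bromodomain protein, Cgnl1, a junction protein, and Erc1, a scaffold of membrane trafficking, held 8 each.

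At the top of the lists, scores piled up at 1 value. Over the 12 lists 1086 peaks had a score of exactly 3100 and 79 a higher one, up to 3233. This value was read as a ceiling of the peak caller, which the sources used here do not state, and scores of 3100 and above were held equal. The ranks of loci given below as at the ceiling rest on that reading. Between 52 and 105 loci per kidney were at this ceiling, with 67 ± 12.8 in control, 97.8 ± 7.5 in IG and 78 ± 9.63 in TG. Loci tied there share a rank, which was 26.5 to 42.0 in control, 44.5 to 53 in IG and 34.5 to 45.5 in TG, so small shifts of rank at the top follow the number of ties. In all 12 kidneys, 24 loci in 19 genes were at the ceiling. They lay, among others, in Eif5b (translation initiation), Ncl (nucleolin, ribosome biogenesis), Golgb1 (a giant Golgi protein), Prrc2c, Nufip2, Ppig (a nuclear cyclophilin), Tab2 (a kinase adaptor of NF-κB signalling), Ubxn4 and Rsph3b, whose middle 50 bases occur at 2 places in the genome. All of them had mean ranks of 34.0 in control, 49.4 in IG and 39.5 in TG, and none was called in any comparison. Below it, the steadiest rank belonged to Nbn, a component of the DNA break repair complex with Rad50. Its locus in the CDS (chr4:15981307-15981748) ranked 767, 754, 746 and 916 in control, 750, 754, 706 and 775 in IG and 668, 684, 638 and 732 in TG. The ranks of IG overlapped with those of control and TG, while all 4 TG kidneys ranked it above all 4 control kidneys. The differences were 0.06 in IvC, 0.08 in TvI and 0.14 in TvC (SE 0.16 each), and none was called (adjusted p = 0.860, 0.895 and 0.636, limma).

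Kidneys of a group resembled each other in how they ranked the 2420 loci. The mean Spearman correlation between pairs of kidneys was 0.829 within control (6 pairs), 0.790 within IG (6 pairs) and 0.772 within TG (6 pairs). Between control and IG it was 0.651 and between control and TG 0.653 (16 pairs each), while between IG and TG it was 0.757 (16 pairs). The lowest correlation within control, 0.823, lay above the highest between control and IG, 0.691, and above the highest between control and TG, 0.686. The correlations between IG and TG, from 0.720 to 0.778, overlapped with those within IG, from 0.761 to 0.805. Pairs share kidneys, and these values are given without a test.

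**Figure D2:**
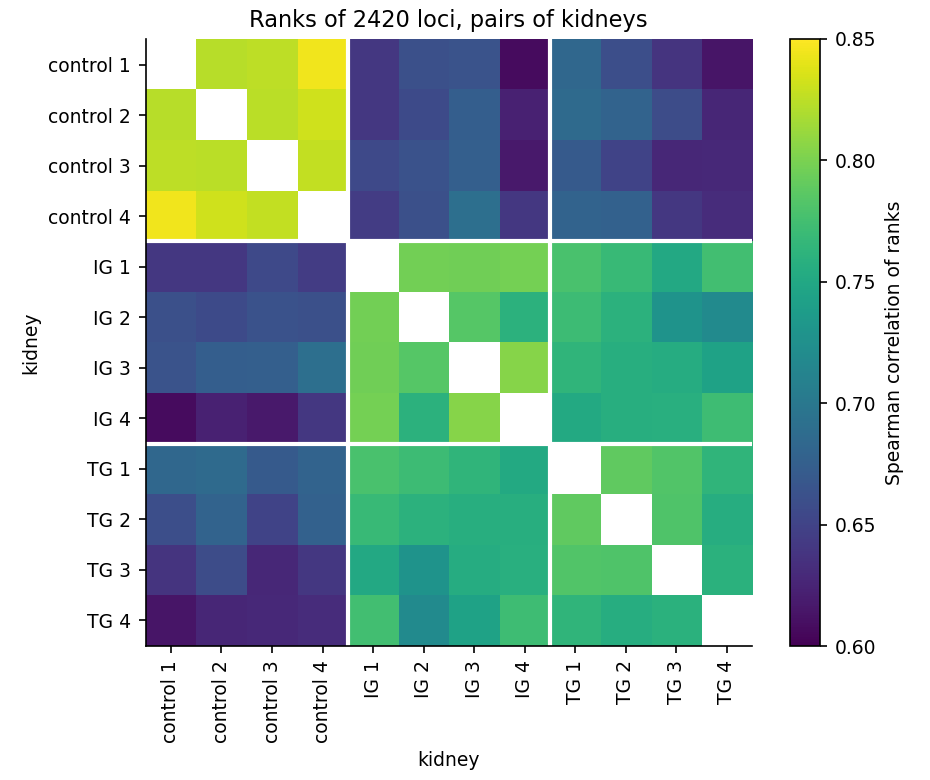
Spearman correlation (colour) of the ranks of the 2420 loci for every pair of kidneys, with kidneys on both axes ordered by group and white lines between groups. The control kidneys form a block at 0.823 to 0.845, and the IG and TG kidneys are closer to each other (0.720 to 0.778) than to control (0.607 to 0.691).

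The first question was which of these loci gained or lost rank after cisplatin. Ranks were turned into normal scores (the quantiles of a standard normal distribution), and tested with limma over all 5210 loci that had a peak in at least 2 kidneys of each group. Of the 2420 loci, 359 passed an adjusted p of 0.05 in IvC, against 10.6% of all tested loci. Higher rank in IG was called for 198 loci in 168 genes and lower rank for 161 loci in 130 genes, where 5.28% of all tested loci were called higher and 5.28% lower. The called share of the 2420 loci was 14.8% and that of the 2790 other tested loci 6.85%, of which many lack values in some kidneys. The median difference over the 2420 loci was 0.01, and the median size of a called difference was 1.08 upward and 1.03 downward. In 178 of the 198 raised loci and 149 of the 161 lowered loci the ranks of the 4 IG and 4 control kidneys did not overlap. Non-overlap is close to the call itself, and over all 2420 loci 302 (12.5%) ranked higher and 317 (13.1%) lower in IG without overlap.

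The balance of directions rests on the scale. When the score was read as a percentile in the whole list of a kidney, 142 loci were higher and 231 lower, and the median of all tested loci moved to −0.11. Of the 359 called loci 301 were also called on that scale and none turned direction. Of the 183 loci at the ceiling in at least 1 kidney 62 were called (33.9%), and of the 2237 never at the ceiling 297 were called (13.3%). In 25 called loci all 4 control or all 4 IG kidneys were at the ceiling, so the spread in that group is set by ties.

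Raised loci had a median rank of 1558 in control and 586 in IG, and lowered loci 436.5 in control and 1304 in IG. Those values are fixed by the call. In TG the same loci had median ranks of 646.5 and 1135. The TG kidneys entered the choice of loci and the variance of the fit. Loci chosen for a large IvC difference tend to have extreme IG ranks, so TG ranks between control and IG can follow from that choice.

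**Figure D3:**
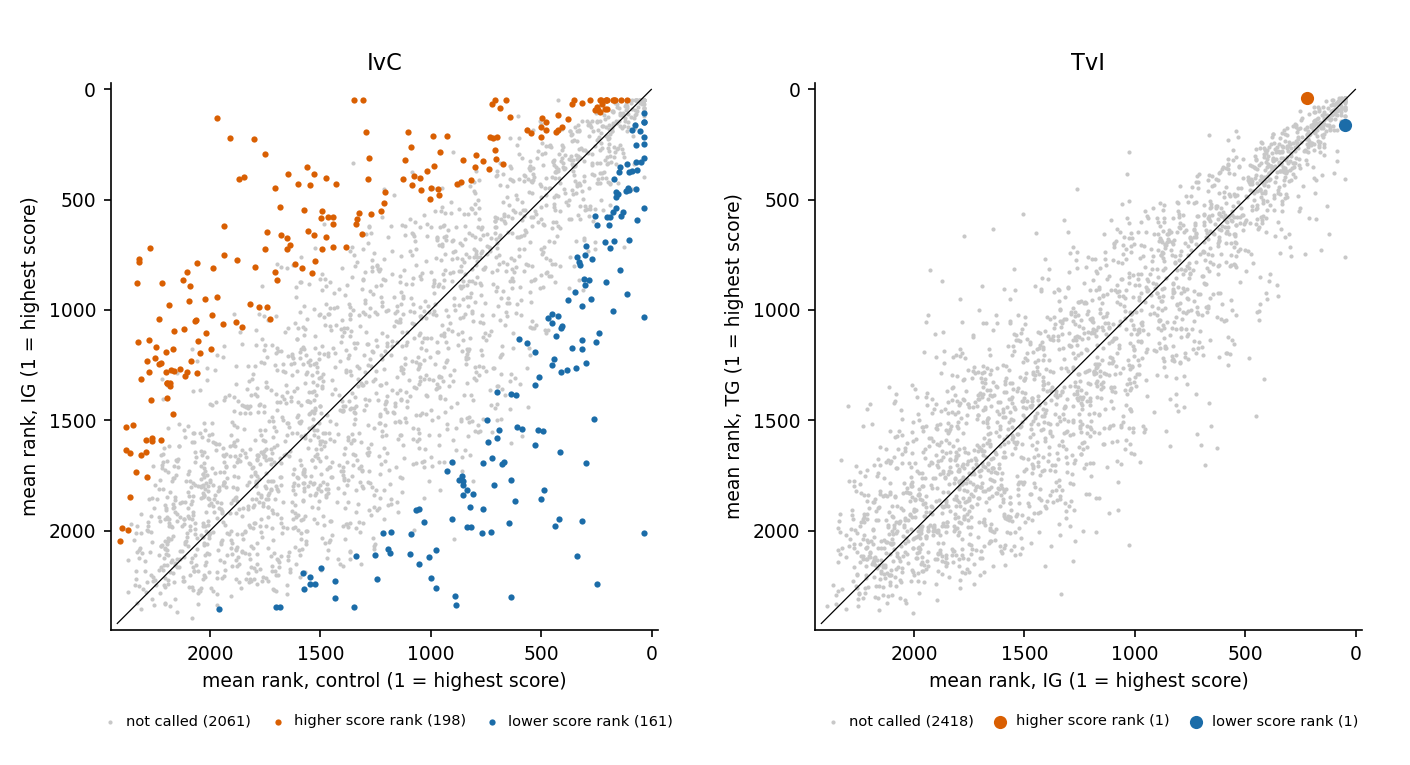
Mean rank of each of the 2420 loci in control (horizontal) and IG (vertical) on the left and in IG (horizontal) and TG (vertical) on the right, with rank 1 at the right and the top and the diagonal marking equal ranks. Orange points were called higher and blue points lower, 198 and 161 in IvC and 1 each in TvI, and the rest are grey.

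The largest rise was in Rrbp1, which encodes the ribosome-binding protein of the endoplasmic reticulum. The locus reached over the start codon (chr2:143988148-143990266, minus strand). Its ranks were 2303, 1308, 2195 and 2075 in the control kidneys, 316, 113, 51.5 and 44.5 in IG and 755, 509, 598 and 252 in TG. All IG kidneys ranked it above all control kidneys, and so did all TG kidneys. The IvC difference was 2.77 ± 0.31 (SE; limma, adjusted p = 3.69e-05). Its mean score was 106 in control, 2559 in IG and 736 in TG. In IG 3 and IG 4 the locus was at the score ceiling described above, so the IG mean is limited by it.

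Anp32b, an acidic histone chaperone, rose from ranks of 1657, 2051, 1727 and 2210 in control to 199, 207, 200 and 270 in IG, and was at 340, 179, 105 and 213 in TG. The locus reached over the stop codon (chr4:46472087-46472657), and the difference was 2.20 ± 0.21 (adjusted p = 8.57e-06, limma). IG and TG overlapped and both lay apart from control. The middle 50 bases of this locus occur at 3 places in the genome, so its reads may be shared with copies.

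Plat, which encodes tissue plasminogen activator, rose at a locus in the 5′ UTR (chr8:22757744-22757828). Ranks were 1870, 1969, 1534 and 1824 in control, 222, 309, 189 and 190 in IG and 749, 828, 359 and 1047 in TG. The IvC difference was 1.99 ± 0.21 (adjusted p = 3.15e-05, limma). The TG kidneys lay between the other groups without overlap, but the TvI difference of −0.80 ± 0.21 did not pass (adjusted p = 0.226, limma).

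Bmp3, a bone morphogenetic protein, was near the bottom in control, at 2344, 2263, 2349 and 2373, and rose to 602, 1021, 958 and 935 in IG, with 744, 515, 1616 and 749 in TG. The locus lay in the CDS (chr5:98872030-98873202), with a difference of 2.18 ± 0.29 (adjusted p = 0.00019, limma). Every cisplatin-treated kidney ranked it above every control kidney.

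Other loci among the largest rises were those in Hoxc8, a homeobox factor (2.23 ± 0.25), Pik3c2a, a class II phosphoinositide kinase (2.16 ± 0.31), Leo1, a subunit of the PAF1 transcription elongation complex (2.02 ± 0.32), and Luc7l, a U1 snRNP-associated splicing factor (1.89 ± 0.39), all past the threshold. Gm10722 and Gm21738 rose by 2.22 ± 0.24 and 2.17 ± 0.18 and reached the ceiling in all 8 cisplatin-treated kidneys. Over 57 compared bases their windows shown above are equal at 54, and the middle 50 bases of the Gm10722 locus occur at 25 places in the genome, so the Gm10722 rise cannot be assigned to 1 gene. Those of the Gm21738 locus occur at 1 place, and reads from near-identical copies remain uncertain there. A near-identical locus in Gm10800, equal to Gm21738 at 57 of 61 bases of that window, was at the ceiling in all 12 kidneys, so its score could not show a rise (IvC −0.16, adjusted p = 0.132, limma).

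The largest fall was in Igfbp5, which encodes a binding protein of insulin-like growth factors. Its locus spanned the last exon from the stop codon into the 3′ UTR (chr1:72857932-72862508, minus strand) and was at the ceiling in all 4 control kidneys, with tied ranks of 26.5, 32.5, 35.0 and 42.0. In IG the ranks were 2363, 1898.5, 1381 and 2400, and in TG 1797, 1221, 104 and 2234. IG lay apart from control, and the TG kidneys were spread over most of the list. The IvC difference was −3.53 ± 0.54 (adjusted p = 0.000602, limma), and the TvI difference of 1.24 ± 0.54 did not pass (adjusted p = 0.436).

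Klk1b4, a kallikrein-related gene, fell at a CDS locus (chr7:44210655-44210941) from 215, 261, 183 and 330 in control to 2317, 2380, 2109 and 2165 in IG. In TG the ranks were 1243, 1526, 2197 and 2184. The difference was −2.83 ± 0.33 (adjusted p = 6.74e-05, limma). IG and TG overlapped, and the middle 50 bases of the locus occur at 2 places in the genome, so its reads may be shared within the kallikrein family.

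Plcb1, a phospholipase C, fell at 1 internal exon of 90 nt (chr2:135386273-135386362). The ranks were 302, 360, 408 and 284 in control, 1999, 2273, 2055 and 2127 in IG and 1533, 1262, 1102 and 1498 in TG. The 3 groups did not overlap, with TG between the others. The IvC difference was −2.26 ± 0.23 (adjusted p = 1.54e-05, limma) and the TvI difference 1.02 ± 0.23 (adjusted p = 0.123), which did not pass.

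Elfn1, a leucine-rich repeat protein, fell at the stop codon exon (chr5:139970978-139974724) from 763, 530, 673 and 579 in control to 2349, 2362, 2359 and 2126 in IG, with 840, 1456, 1779 and 1662 in TG. The difference was −2.38 ± 0.29 (adjusted p = 9.69e-05, limma). Pclo, a scaffold of presynaptic zones, also fell (−2.26 ± 0.32), as did Dnajc28, a DnaJ family protein (−2.13 ± 0.29), Tox3, an HMG box factor (−2.06 ± 0.35), R3hdm2 (−1.99 ± 0.37), Gadd45g, a growth arrest and DNA damage gene (−1.96 ± 0.40), and Prelp, a matrix proteoglycan (−1.94 ± 0.52). The Prelp call was lost when any 1 control kidney was left out (adjusted p from 0.051 to 0.0626 without control 1, 2, 3 or 4).

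**Figure D4:**
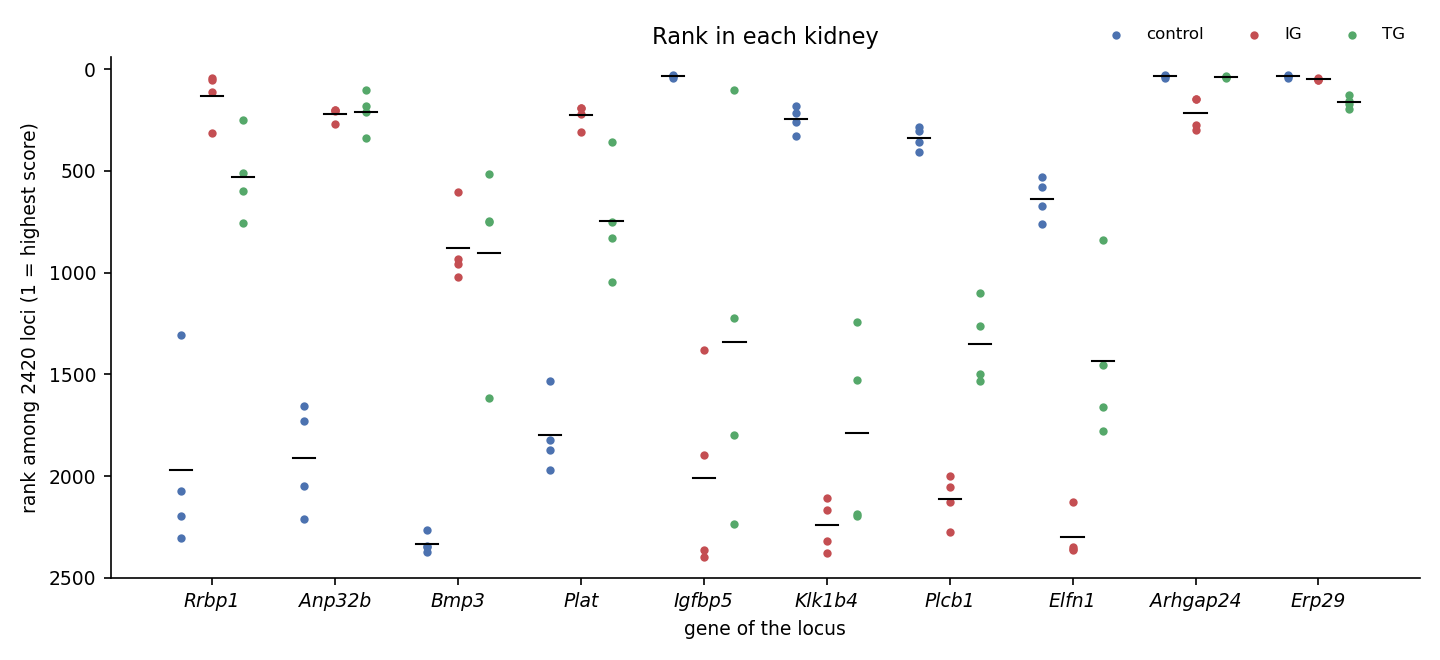
Rank among the 2420 loci (vertical axis, 1 at the top) in each of the 12 kidneys for 10 named loci, with a point per kidney, coloured by group, and a bar at the group mean. The 4 genes on the left rose in IvC, the next 4 fell, and Arhgap24 and Erp29 are the loci called in TvI. TG points of Plat and Plcb1 lie between control and IG.

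The genes of the m6A machinery themselves carried 16 of the loci, in 7 of the 21 listed genes. In IvC 3 loci rose (18.8%) and none fell, against 5.28% of all tested loci in each direction. Over all 2420 loci the shares were 8.18% higher and 6.65% lower. The median difference was 0.22, against −0.02 over all tested loci. On the percentile scale 2 loci rose, with robust variances 2 and on the scale of log2 scores 5, and none fell. Ythdc1, the nuclear m6A reader, rose at a CDS locus (chr5:86816907-86817333) whose ranks were 334, 420, 191 and 179 in control, 48.5, 53, 51.5 and 44.5 in IG and 85, 41, 34.5 and 45.5 in TG. All IG kidneys and 3 TG kidneys were at the ceiling. The difference was 0.83 ± 0.12 (adjusted p = 0.000288, limma). A second Ythdc1 locus, over the stop codon, rose by 0.55 (adjusted p = 0.0277, limma), a call lost without control 1 or 4 or IG 1 or 4 (adjusted p from 0.0668 to 0.0896), while the other two in this gene did not pass, at 0.15 and 0.13. Zc3h13, a subunit of the writer complex, held 7 loci, and 1 of them rose (chr14:75327544-75328144; 0.70 ± 0.14, adjusted p = 0.00368, limma). Loci in Virma (0.38), Ythdf2 (−0.52), Rbm15 (−0.12), Rbm15b (−0.29) and Cbll1 (−0.31) did not pass in IvC.

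Among splicing factors and other RNA-binding proteins, 45 loci in 21 of 57 listed genes were present in all kidneys. Of these 4 rose (8.89%) and 1 fell (2.22%), against 5.28% of all tested loci in each direction, with a median of 0.10. Over all 2420 loci the shares were 8.18% higher and 6.65% lower, so the share of rises was near that of the 2420. The count of rises was 2 without control 4, IG 1 or IG 4 and 2 with robust variances. The calls of Rbm25 (0.51) and Rbm27 (0.62), RNA-binding proteins, were both lost without control 1 or 4 or IG 1 or 4, and that of Rbm27 also without control 3 or IG 2 (adjusted p from 0.0568 to 0.0869). Srek1, a splicing regulator, rose by 0.66 ± 0.10 (adjusted p = 0.000741, limma) and reached the ceiling in all 4 IG kidneys. The locus that fell was in Hnrnpul1, by 0.83 (adjusted p = 0.038, limma), a call lost when control 1, 2, 3 or 4 or IG 4 was left out (adjusted p from 0.0605 to 0.0933). On the percentile scale 2 loci of this list were called higher and 2 lower, and on the scale of log2 scores 7 higher and 1 lower.

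Chromatin regulators formed the largest group, with 137 loci in 54 of 85 genes. In IvC 9 rose (6.57%) and 7 fell (5.11%), with a median of 0.03. These shares were near the 5.28% of all tested loci in each direction and under the 8.18% and 6.65% of the 2420 loci. All 4 loci of Baz1a, a subunit of ISWI remodellers, rose, and all 6 loci of Smarca2, an ATPase of BAF remodellers, fell. Dnmt1, the maintenance DNA methyltransferase, rose at 1 of its 6 loci by 1.46 (adjusted p = 0.00453, limma), and Brwd3 by 1.13 (adjusted p = 0.012, limma). On the percentile scale the list had 6 higher and 10 lower.

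Of 28 loci in genes of ubiquitin ligases and deubiquitinases, 1 rose (3.57%) and 2 fell (7.14%), against 5.28% of all tested loci in each direction. Over all 2420 loci 8.18% were higher and 6.65% lower. Rnf20, a ligase for histone H2B, rose by 0.76 ± 0.12 (adjusted p = 0.00115, limma), and Usp8, a deubiquitinase of endosomal receptors, fell by 1.34 (adjusted p = 0.00868, limma). The other fall, in the deubiquitinase gene Usp9x (−1.15, adjusted p = 0.0414, limma), was lost in 10 of 23 alternatives, among them those without control 1, 2 or 4 or IG 1, 3 or 4 (adjusted p from 0.0573 to 0.125). The other lists held few loci. For tubular injury and repair there were 4 loci in 27 listed genes, of which Akap12, a scaffold of protein kinase A, rose by 1.42 (adjusted p = 0.00244, limma), while Clu (0.35), Dcdc2a (1.06) and Icam1 (0.12) did not pass. Of 12 loci in p53 targets and DNA damage genes, 1 rose, in Mdc1 (1.57, adjusted p = 0.00561, limma), and the 7 loci of Rad50, a subunit of the break repair complex, lay between −0.15 and 0.32 without a call. In the NRF2 list 1 of 4 loci was called: Txnrd1, a thioredoxin reductase, rose by 0.97 (adjusted p = 0.0294, limma), but not when control 1, 2 or 4 or IG 1, 2 or 4 was left out (adjusted p from 0.0522 to 0.077). In the list of basement membrane, collagen and integrin genes 1 of 7 loci was called: Col5a1 rose by 0.95 (adjusted p = 0.0209, limma), a call lost without control 4 (adjusted p = 0.0528) or IG 1 (adjusted p = 0.0725). No locus of the lists for thick limb and distal segments (2 loci, in Stk39), immediate early factors (2 loci), fatty acid oxidation (1 locus, in Ppargc1a at −0.83, adjusted p = 0.095, limma) or podocyte, endothelial and leukocyte markers (1 locus, in Pecam1 at −0.53, adjusted p = 0.311, limma) was called in IvC. The list of proximal tubule transport held 0 of the 2420 loci in 38 genes, of which 17 had a locus in any kidney. Whether the lists were filtered by gene before deposit is not stated, so this 0 cannot be read as a lack of methylation.

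Loci that reached over the start codon had 29 higher (13.7%) and 12 lower (5.69%) of 211 in IvC. Over all 2420 loci the shares were 8.18% higher and 6.65% lower, and over all tested loci 5.28% each way. CDS loci had 116 higher (7.49%) and 106 lower (6.85%) of 1548, and stop codon loci 40 higher (7.17%) and 38 lower (6.81%) of 558, both near the shares of all 2420. On the percentile scale the start codon loci had 13 higher and 16 lower, so this split depends on the scale. Without IG 4 it was 12 higher and 9 lower.

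Loci of 1 gene tended to move together. Across 1354 pairs of loci in the same gene the IvC differences correlated at 0.49 and the TvI differences at 0.16; both loci of a pair share the RNA level of their gene. Of 41 genes with at least 2 called loci in IvC, 23 had all of them higher, 17 had all of them lower and 1, Golim4, had both. In 4 of the 171 genes with at least 3 loci, every locus was called. These genes were picked after their values were seen.

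In Smarca2 all 6 loci fell, by between 0.76 and 1.45 (adjusted p from 7.23e-05 to 0.0304, limma). At the locus with the largest fall (chr19:26720729-26720947) the ranks were 73, 188, 140 and 42.0 in control, 1071, 710, 1027.5 and 895 in IG and 757, 588, 696 and 856 in TG. Neither IG nor TG overlapped with control, and they overlapped with each other. The 5 loci of Suds3, a subunit of the SIN3 corepressor, fell by between 0.59 and 1.18, and the 4 loci of Baz1a rose by between 0.69 and 1.52. The 3 loci of Zfpm1, a cofactor of GATA factors, rose by between 1.00 and 1.31. With 1 kidney left out, 4 loci of Baz1a, 5 to 6 of Smarca2, 4 to 5 of Suds3 and 1 to 3 of Zfpm1 were called, with the 1 in Zfpm1 without IG 1. With robust variances 5 loci of Smarca2 and 3 of Suds3 were called. In Cgnl1 all 8 loci had lower mean ranks in IG, with differences from −1.06 to −0.57, and 5 of them were called. The clearest of these (chr9:71645492-71645653) was at the ceiling in the 4 control kidneys and had mean ranks of 249 ± 50 in IG and 141.5 ± 20.7 in TG (SD, n = 4). Its difference was −0.93 ± 0.09 (adjusted p = 9.79e-06, limma). The control ranks are tied at the ceiling, so their spread is set by ties. Another call in Cgnl1 (chr9:71650222-71650392, −0.93) was lost without control 1, 2 or 3 or IG 1 (adjusted p from 0.062 to 0.0722).

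Golim4, a Golgi membrane protein, differed between its loci. Its stop codon locus (chr3:75877017-75878177) rose from 2145, 2329, 2355 and 2274 in control to 1509, 949, 1506 and 1165 in IG, a difference of 1.54 ± 0.32 (adjusted p = 0.00601, limma). A CDS locus 5′ of it (chr3:75906399-75906549) fell from 746, 582, 1375 and 721 to 1802, 1797, 1677 and 1902, a difference of −1.04 ± 0.28 (adjusted p = 0.0255, limma). The groups did not overlap at either locus, with opposite directions. Another locus (chr3:75894835-75895137) rose by 0.76 (adjusted p = 0.0448, limma). The fall was lost without control 1, 2 or 4 or IG 1 or 4 (adjusted p from 0.0515 to 0.0779), and the second rise was lost in 10 of 23 alternatives, among them those without any 1 of the control kidneys or of IG 1, 2 and 3 (adjusted p from 0.0532 to 0.113). The 10 loci of Rock1, by contrast, lay between −0.21 and 0.51, those of Akap9 between −0.98 and 0.39, of Baz2b between −0.89 and 0.45 and of Erc1 between 0.15 and 0.84, and none of them was called.

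**Figure D5:**
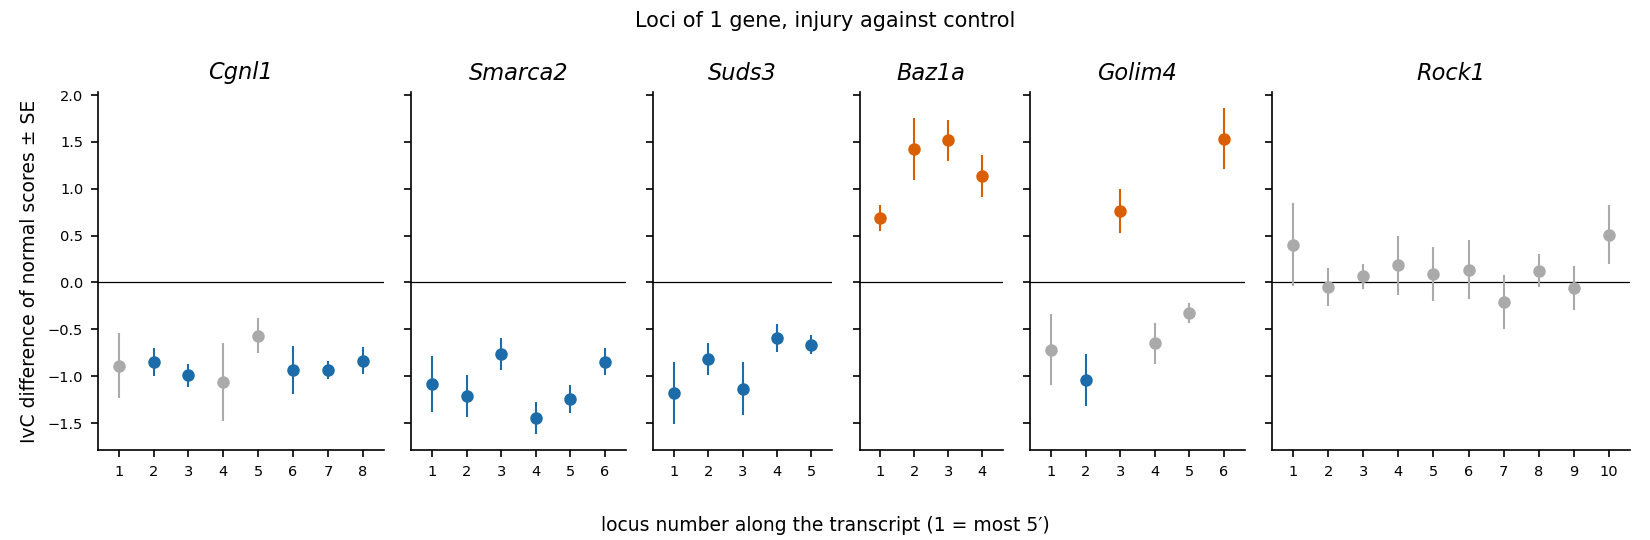
IvC difference of normal scores (vertical axis, bars are SE) for each locus of 6 genes, numbered along the transcript from the 5′ end (horizontal axis). Blue points were called lower, orange points higher and grey points did not pass. All 6 loci of Smarca2 and all 5 of Suds3 fell, all 4 of Baz1a rose, Golim4 held calls in both directions and Rock1 held none.

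TvI asked which of these loci moved with berberine under cisplatin. Of the 2420 loci, 2 were called, 1 in each direction, against 0.0576% of all tested loci. At an unadjusted p of 0.05, 247 of the 2420 loci (10.2%) passed, against 10.4% of all tested loci. The median size of a difference was 0.24, compared with 0.38 in IvC.

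Arhgap24, which encodes a GTPase-activating protein for Rac, rose at a CDS locus (chr5:102891842-102892919). It ranked 276, 148, 147 and 301 in IG, 37, 41, 34.5 and 45.5 in TG, and in control its ranks were 26.5, 32.5, 35.0 and 42.0. All control and TG kidneys were at the ceiling and no IG kidney was. The TvI difference was 0.78 ± 0.10 (adjusted p = 0.00237, limma), and in IvC the locus fell by 0.84 ± 0.10 (adjusted p = 5.58e-05, limma).

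Erp29, an endoplasmic reticulum chaperone, fell at its stop codon locus (chr5:121444309-121445572). In TG its ranks were 196, 125, 171 and 157, while all 4 IG kidneys, at 48.5, 53, 51.5 and 44.5, and all 4 control kidneys were at the ceiling. The TvI difference was −0.55 ± 0.08 (adjusted p = 0.00537, limma). For both loci the spread in the groups at the ceiling is set by ties, and both calls were lost on the log2 scale (adjusted p = 0.0583 and 0.267) and with robust variances without a trend (adjusted p = 0.219 and 0.273).

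The next loci by p did not pass. They were those of Aldh8a1, a retinal dehydrogenase (−1.07 ± 0.21, adjusted p = 0.0639, limma), AW209491 (−1.48 ± 0.28, adjusted p = 0.0639, limma), Elfn1 (1.50 ± 0.29, adjusted p = 0.0671, limma) and 1 Golim4 exon (0.49 ± 0.10, adjusted p = 0.0849, limma). Aldh8a1 ranked at the ceiling in control, 159, 227, 51.5 and 44.5 in IG and 589, 238, 700 and 1098 in TG, and its IG and TG kidneys did not overlap.

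In TvC 335 loci were called, 200 higher and 135 lower in TG, against 10% of all tested loci, of which 5.18% were higher and 4.82% lower. The control kidneys are the same as in IvC, so this is no independent comparison. On the percentile scale 130 were higher and 278 lower, and the median of all tested loci moved to −0.21. On the log2 score scale 293 of the 335 were also called and 2 falls turned direction without a call, in Zrsr1 (−0.53 to 0.05) and at 1 locus of Arid1a (−0.39 to 0.15). The m6A machinery had 4 of 16 loci higher and 1 lower, which was Rbm15, a subunit of the writer complex. On the percentile scale it had 2 higher and 2 lower, and with robust variances 1 higher and 0 lower. Pecam1, an endothelial adhesion molecule and the only cell type marker among the loci, ranked 676, 592, 778 and 666 in control, 1193, 1262, 914 and 1279 in IG and 2184, 1609, 1787 and 645 in TG. It was called lower in TvC (−1.02, adjusted p = 0.0499, limma), a call lost in 19 of 23 alternatives, among them those without any 1 control or IG kidney or without TG 1, 2 or 3 (adjusted p from 0.0543 to 0.116). Its part in the other differences was not tested. The Akap12 locus, which holds the position the study lists for this gene, ranked 477, 591, 1083 and 479 in control, 48.5, 53, 51.5 and 44.5 in IG and 37, 41, 34.5 and 573 in TG. All IG kidneys and all TG kidneys but TG 4 were at the ceiling. Its TvI difference was −0.25 ± 0.26 (SE; adjusted p = 0.784, limma), and in TvC it was higher by 1.17 (adjusted p = 0.00884, limma). Among genes the study lists for a change in m6A between TG and IG, Metap2, a methionine aminopeptidase, held 3 loci present in all kidneys, at other positions than the peak listed there. Their TvI differences were 0.14, 0.28 and 0.35 (adjusted p = 0.889, 0.399 and 0.470, limma), and their IvC differences −0.15, 0.15 and 0.09, none called. In TvC the locus with the TvI difference of 0.28 was called higher (0.42, adjusted p = 0.0243, limma), but not on the percentile scale, with robust variances or without control 3, control 4 or TG 2 (adjusted p from 0.0591 to 0.167).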

How the data were processed

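The authors immunoprecipitated fragmented RNA of about 100 nucleotides with an m6A antibody, sequenced it as 150 bp paired-end reads, trimmed with Cutadapt 1.9.3, aligned with HISAT2 2.0.4 to mm10, identified peaks by MACS and selected those overlapping mRNA exons, 1 list per kidney. The deposited score of a peak is −10 log10 of its p-value. The MACS version, threshold and control library are not given in the sources used here. Lists hold no counts, so depth is unknown and precision rests on 4 kidneys per group; p-values measure the spread between these kidneys.

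Peaks overlapping by at least 1 bp were joined regardless of strand. A locus took its highest score in each kidney, with scores of 3100 and above tied. Ranks among the 2420 loci (other loci were placed on the same scale) became normal scores and were fitted with limma 3.58.1 (R 4.3.3; group means, variance trend, two-sided), with Benjamini-Hochberg adjustment over 5210 loci with peaks in at least 2 kidneys per group. Simulated normal values with planted shifts were also put through the fit. They held no ties and no ceiling, so they say nothing about calls at the ceiling. Missing peaks were left as missing. Loci were annotated with 21866 protein-coding genes of GENCODE M21, each by the transcript with the longest CDS, and sequence was read from GRCm38. Copies were counted as exact matches of the middle 50 bases.

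The members, gene lists and tests were chosen with earlier results of these data known. Named loci were the 10 highest by mean rank, the 10 largest called differences per direction in IvC and TvI, 1 per gene (with fewer than 3 calls, the 3 lowest p), up to 4 called loci per gene list and direction, loci in genes the study names, the 5 steadiest, and the 5 genes with most loci. Smarca2, Suds3, Baz1a, Zfpm1, Golim4, Zrsr1, 1 Arid1a locus and Pecam1 were named after their values were seen. Alternatives were other rank scales, joining rules, score thresholds, variance models, a replicate block and leaving out each kidney. Computations used Python 3.11.15, numpy 2.4.6, pandas 2.3.3, scipy 1.17.1, pysam 0.24.0 and matplotlib 3.10.9. The result of 1 gene list is not reported here.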

Additional observations from a re-analysis of the deposited data

Results flagged for a closer look

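In 131 groups of 4 kidneys, 9 had 1 kidney far from the other 3, by Dixon's test at the 95% level, where chance alone gives about 1 in 20. Groups with 2 or more kidneys at the score ceiling were left out. The median score of the 2420 loci was 334 in control 4 and 259.5, 261 and 269 in the other control kidneys. The share of the 1000 highest peaks that lay in these loci was 77.3% in TG 4 and 82.6%, 82.6% and 83% in the other TG kidneys. IG 4 stood apart in 3 ranks: 270 for Anp32b (others 199 to 207), 2126 for Elfn1 (others 2349 to 2362) and 1752 for Hnrnpul1 (others 859 to 943). The rank of Pik3c2a was 2106 in control 2 and 2323 to 2336 in the other control kidneys, and that of Rnf20 was 334 in control 4 and 449 to 461 in the others. Tox3 ranked 2125 in IG 3 against 2339.5 to 2360 in the other IG kidneys, and 1494 in TG 1 against 2223 to 2319.5 in the other TG kidneys.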

How the results depend on the processing

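The IvC count of 359 called loci lay between 263 and 472 over 11 alternatives and the TvC count of 335 between 234 and 416. Fewer were called when variances were robust without a trend and more when only the 2420 loci were adjusted for. With scores of at least 50 the counts were 263 in IvC and 248 in TvC, but out of 1430 loci in place of 2420. The TvI count of 2 went to 4 on the percentile scale, 4 when only the 2420 loci were adjusted for, 0 on the log2 scale (267 loci at an unadjusted p of 0.05, limma) and 0 with robust variances (220 loci). Leaving out 1 kidney gave 261 to 383 loci in IvC, 2 to 3 in TvI and 247 to 344 in TvC. The number of loci in all kidneys was 1430 with scores of at least 50, 1923 with lists of equal length and 2321 to 2422 under other joining rules, and 2449 to 2552 loci were in all remaining kidneys when 1 was left out. Mean rank correlations without 1 kidney were 0.824 to 0.833 within control, 0.783 to 0.799 within IG, 0.766 to 0.784 within TG, 0.643 to 0.661 between control and IG, 0.644 to 0.663 between control and TG, 0.753 to 0.761 between IG and TG.

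With the replicate number as a replicate block, 326 loci were called in IvC, 2 in TvI and 321 in TvC. Deviations of same-numbered kidneys of different groups correlated at −0.03 to 0.11, and those of differently numbered kidneys at −0.12 to 0.10. Between IG and TG the mean was 0.06 for same and −0.02 for different numbers. Whether the number marks a pairing or a batch was not tested. Of 49 named loci called in IvC, 35 passed in every alternative that gave them a value (21 to 23 each) and none turned direction. The other 14 lost the IvC call in at least 1, among them those in Prelp, Txnrd1, Rbm25, Arid1b, Mdc1, Rbm27, Col5a1, Hnrnpul1, Arid1a and Usp9x, 2 of Golim4 and 1 of Cgnl1. Of the 335 loci called in TvC, 2 turned direction on the log2 scale, in Zrsr1 and Arid1a. Scores without counts set the limit: a locus missing from a list may lie just under the threshold, and differences among loci at the ceiling cannot be seen.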
